A study of Mus musculus with 12 samples.

Results

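Secondary mouse neurospheres were compared with primary ones made from the same kind of pluripotent cell, called a line here. Neurospheres are free-floating balls of neural stem and progenitor cells. By convention, primary spheres form directly from the starting cells, and secondary spheres form again from dissociated primary ones. The comparison uses 4 of the 12 arrays of the study, 1 for each stage of each line: primary and secondary neurospheres from induced pluripotent stem (iPS) cells, and the same from embryonic stem (ES) cells. The pluripotent lines profiled in the study are 38C2 (iPS) and EB3 (ES), and the labels of the spheres name the cell type without the line. The other arrays hold those iPS and ES cells, adult fibroblasts, spheres made from fibroblasts, and neurospheres from the ganglionic eminence (GE, the ventral forebrain wall that forms striatal neurons, interneurons and oligodendrocytes) of the E14 embryo, with 1 GE array used here as a reference. All neurospheres were grown in the medium the labels call MHM. The labels also speak of differing culture conditions without saying which, and give no gene alteration, drug treatment or time in culture for the 4 arrays. Each is a single line, and no line and stage has a repeat array, so the only replication is across the 2 lines. The labels do not say how many cultures an array pooled. The p-values rest on a spread estimated in a model of all 12 arrays, and not on these 4 alone.

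Neural stem cells of the embryo make neurons first and glia later. Early on, proneural basic helix-loop-helix factors such as Neurog1 and Neurog2 drive neuron formation, and RNA-binding factors such as Lin28a mark the early, immature state. Later, nuclear factor I proteins, Sox8, Sox9 and JAK-STAT signalling open and drive astrocyte genes, while Olig1 and Olig2 with PDGF receptor alpha mark the oligodendrocyte lineage. The comparison addresses how far spheres of either line moved from the first state toward the second between the primary and secondary stage.

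Values are MAS5 signals, a linear measure of array brightness scaled by the authors to a 2%-trimmed mean of 100 on every array. Wherever a pair of signals is given, the iPS-derived value comes first and the ES-derived value second. A difference is secondary minus primary on the scale of log2(signal + 5), taken within each line. The added 5 makes changes of dim genes look smaller than they are. Means over the lines carry the standard error (SE) of a limma model fitted to all 13650 genes, with a term for the line. "Rose" and "fell" are used only for genes with a limma p-value adjusted over all those genes below 0.05. In bulk RNA, fewer cells of a type and less RNA per cell cannot be told apart.

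The 4 arrays were alike in quality. Between 43.9% and 49.1% of probe sets reached a signal of 20, with the higher value of each line on its secondary array. The 3'/5' ratio, a sign of RNA wholeness, was 1.28 to 1.39 for Actb and 0.709 to 0.824 for Gapdh. Markers of neural progenitors were bright on all 4. Sox2, a transcription factor of neural stem cells and pluripotent cells, read 1908 and 2547 in primary and 2628 and 2409 in secondary spheres. Fabp7, a radial glial lipid-binding protein, read 5082 and 5037 and then 6338 and 6348. In the iPS and ES cells Sox2 read 3353 and 3418 and Fabp7 16.9 and 1.2, so Sox2 alone does not set neural cells apart. The iPS-derived and ES-derived primary arrays differed in one respect that touches many results. Pou5f1 (Oct4), which maintains pluripotency, read 9.6 and 1174 in primary and 5.0 and 53.4 in secondary spheres, and Nanog read 0.2 and 648 and then 3.9 and 29.7. The ES-derived primary spheres thus still carried Pou5f1 and Nanog transcripts at levels that the iPS-derived ones did not. Some other pluripotency genes, such as Lin28a at 221 and 671 and Sall4 at 181 and 1081, were present in the primary spheres of both. Others were near the bottom of the scale in the iPS-derived ones only, such as Dppa4 at 5.8 and 384 and L1td1 at 7.9 and 1011. The summed signal of 33 pluripotency genes was 17513 on that array, against 987.5, 355.9 and 1569 on the iPS-derived primary, iPS-derived secondary and ES-derived secondary arrays. Signals or differences of the genes the results turn on are therefore given line by line.

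The changes of both lines ran together across genes. Across 13650 genes the paired differences of the lines had a Pearson r of 0.603 and a Spearman rho of 0.545, as a description across genes, which are not independent. At least 1 log2 unit of change in the same direction in both lines, called moving alike here with no test, was seen for 849 genes toward higher (6.22%) and 318 toward lower (2.33%). Those 849 were 58.4% of the genes higher by that much in the iPS line and 49.7% of those in the ES line. The 318 were 49.4% of the iPS line's lower genes but 21.7% of the ES line's, where 1466 genes (10.7%) were lower by at least 1 unit against 644 (4.72%) in the iPS line. Movement in opposite directions by at least 1 unit was seen for 43 genes that were higher in the iPS line and lower in the ES line (0.315%). The reverse was seen for 10 genes (0.0733%).

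With both lines in one limma model, 415 genes rose (3.04% of those tested) and 235 fell (1.72%). Of these 650 calls, 512 also moved alike by at least 1 unit. Without the line term, 264 genes rose and 106 fell. The counts lean on each of the 4 arrays. Leaving out the iPS-derived primary array left 43 higher and 57 lower, and leaving out the ES-derived primary array left 108 and 18. Without the iPS-derived secondary array, 4 rose and 1 fell, and without the ES-derived secondary array, 15 and 4. Of the 67 named genes that were called, 50, 42, 64 and 60 were no longer called without these arrays in turn. The split also moves with the scaling. When the arrays were set to a common median, which shifts the median difference of all genes from -0.00 to -0.31, 343 genes rose and 1088 fell, so that 24.0% of calls were higher against 63.8% in the main fit.

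**Figure D1:**
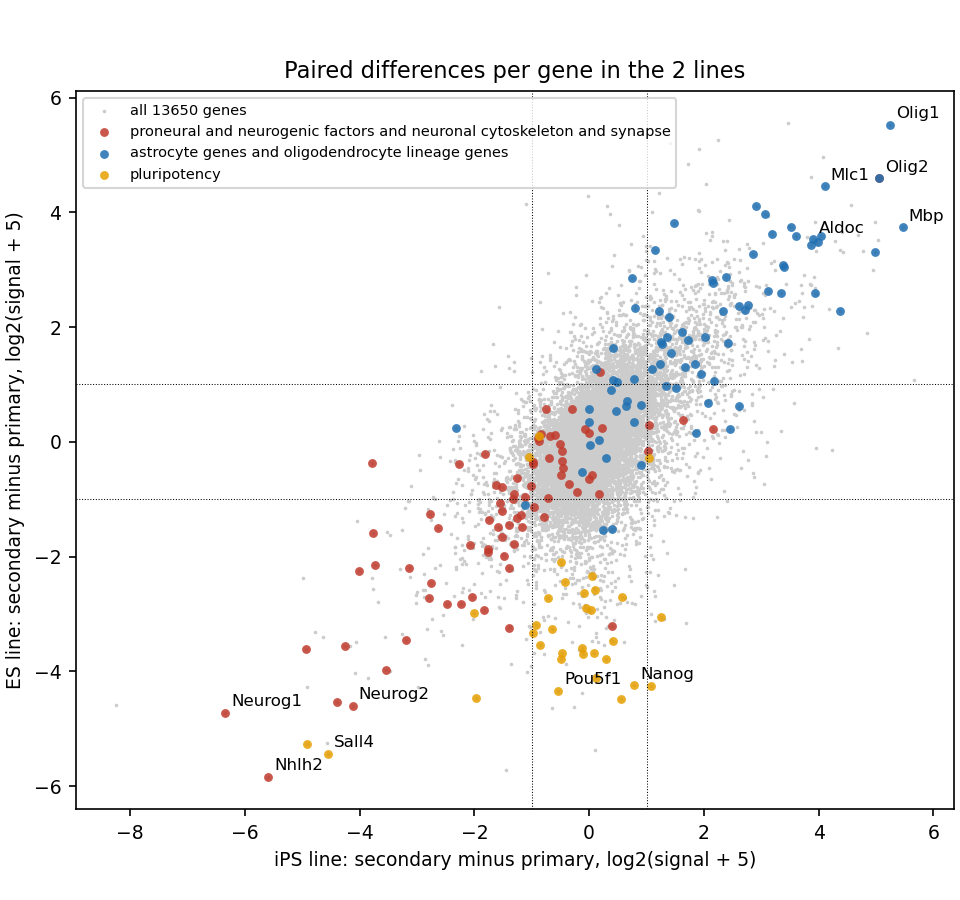
Each point is 1 of 13650 genes, with its secondary minus primary difference in log2(signal + 5) in the iPS line on the x axis and in the ES line on the y axis, and dotted lines at 1 and -1. Neurogenic and neuronal genes (red) reach into the lower left, where Neurog1 and Nhlh2 lie, glial genes (blue) reach into the upper right with Olig1 and Olig2, and most pluripotency genes (yellow) lie low on the y axis near 0 on the x axis.

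Factors that commit progenitors to the neuronal fate were lower in the secondary spheres of both lines. Of 36 neurogenic transcription factors tested, 12 fell and 1 rose, and 19 moved alike toward lower, against 1.72%, 3.04% and 2.33% of all genes. The median difference of the 36 was -1.57 in the iPS line and -1.26 in the ES line, where all genes had 0.03 and -0.00. Neurog1, a proneural factor of the dorsal and sensory nervous system, read 509 and 143 in primary and 1.3 and 0.6 in secondary spheres. Its secondary signals were at the bottom of the scale in both lines, and it fell by 5.54 ± 0.94 (SE, limma adjusted p = 0.0263). Neurog2, its partner in cortex and spinal cord, read 258 and 135 and then 10.1 and 0.8, and fell by 4.36 ± 0.48 (limma adjusted p = 0.00727).

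The factors that follow the neurogenins moved with them. Nhlh2, a helix-loop-helix factor of newly formed neurons, dropped from signals of 1755 and 509 to 31.4 and 4.0, a change of -5.72 ± 0.75 (limma adjusted p = 0.0130). Onecut2, which acts in early-born neurons, went from 816 and 151 to 21.9 and 7.8, a change of -4.27 ± 0.62 (limma adjusted p = 0.0164). For both genes the secondary arrays lay below both primary arrays, as they did for 23.8% of all genes. Neurod4, a downstream neuronal differentiation factor, changed by -4.25 in the iPS line and -3.55 in the ES line (limma adjusted p = 0.0159). Ebf3, which acts in migrating neurons, changed by -2.49 and -2.83 (limma adjusted p = 0.0130). The remaining genes that fell in the list were Isl1, Phox2a, Onecut1, Nhlh1, Lhx5 and Sox11. Without the line term the limma adjusted p was 0.0545 for Onecut1 and 0.0629 for Sox11. Neurod1 moved alike, by -1.83 and -2.93, but was not called (limma adjusted p = 0.0859). It read 335 and 178 in the iPS and ES cells, above the 256 and 154 of the primary spheres. The gene of the list that rose was Olig2, which is listed as a neurogenic factor for its part in motor neuron formation and is described with the oligodendrocyte lineage.

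Genes of the neuronal cytoskeleton and synapse were lower too. Of 43 tested, 9 fell (1.72% of all genes did) and 17 moved alike toward lower (2.33% of all genes). None was called higher by limma, and 0 had a positive difference with an unadjusted p under 0.05. The median difference was -0.98 in the iPS line and -0.90 in the ES line. Nefm, the medium neurofilament subunit, read 3091 and 926 in primary and 143 and 35.1 in secondary spheres and fell by 4.46 ± 0.82 (limma adjusted p = 0.0307). Both secondary values lie under both primary values, as for 23.8% of all genes, and the iPS-derived value is the higher one at each stage. Nefl, the light subunit, went from 2810.3 and 1173 to 237 and 69.6, a change of -3.76 ± 0.70 (limma adjusted p = 0.0311).

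General markers of young neurons fell less far. Tubb3, the neuronal beta-tubulin, read 3009.6 and 1026 and then 429.8 and 152, a change of -2.75 ± 0.59 (limma adjusted p = 0.0450). Dcx, a microtubule protein of migrating neurons, read 1908 and 762 and then 449 and 216 (limma adjusted p = 0.0412). Neither gene reached the bottom of the scale in secondary spheres. Stmn2, a growth-cone protein, changed by -2.04 and -2.71 (limma adjusted p = 0.0404). Its signal was not particular to neurons, since the iPS and ES cells read 1506 and 2276, against 3175 and 1590 in primary spheres. Elavl2, Elavl3 and Dpysl5, RNA-binding and axon-growth proteins of neurons, also fell, by 1.84 ± 0.31, 1.59 ± 0.29 and 1.55 ± 0.30. The calls of Tubb3, Dcx, Stmn2, Elavl3 and Dpysl5 rest on the line term: without it their limma adjusted p-values were 0.0563, 0.0741, 0.0596, 0.107 and 0.107. Map2, a dendrite protein, at -0.07 and 0.22, and Syn1, a synaptic vesicle protein, at -0.45 and -0.45, were not called.

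**Figure D2:**
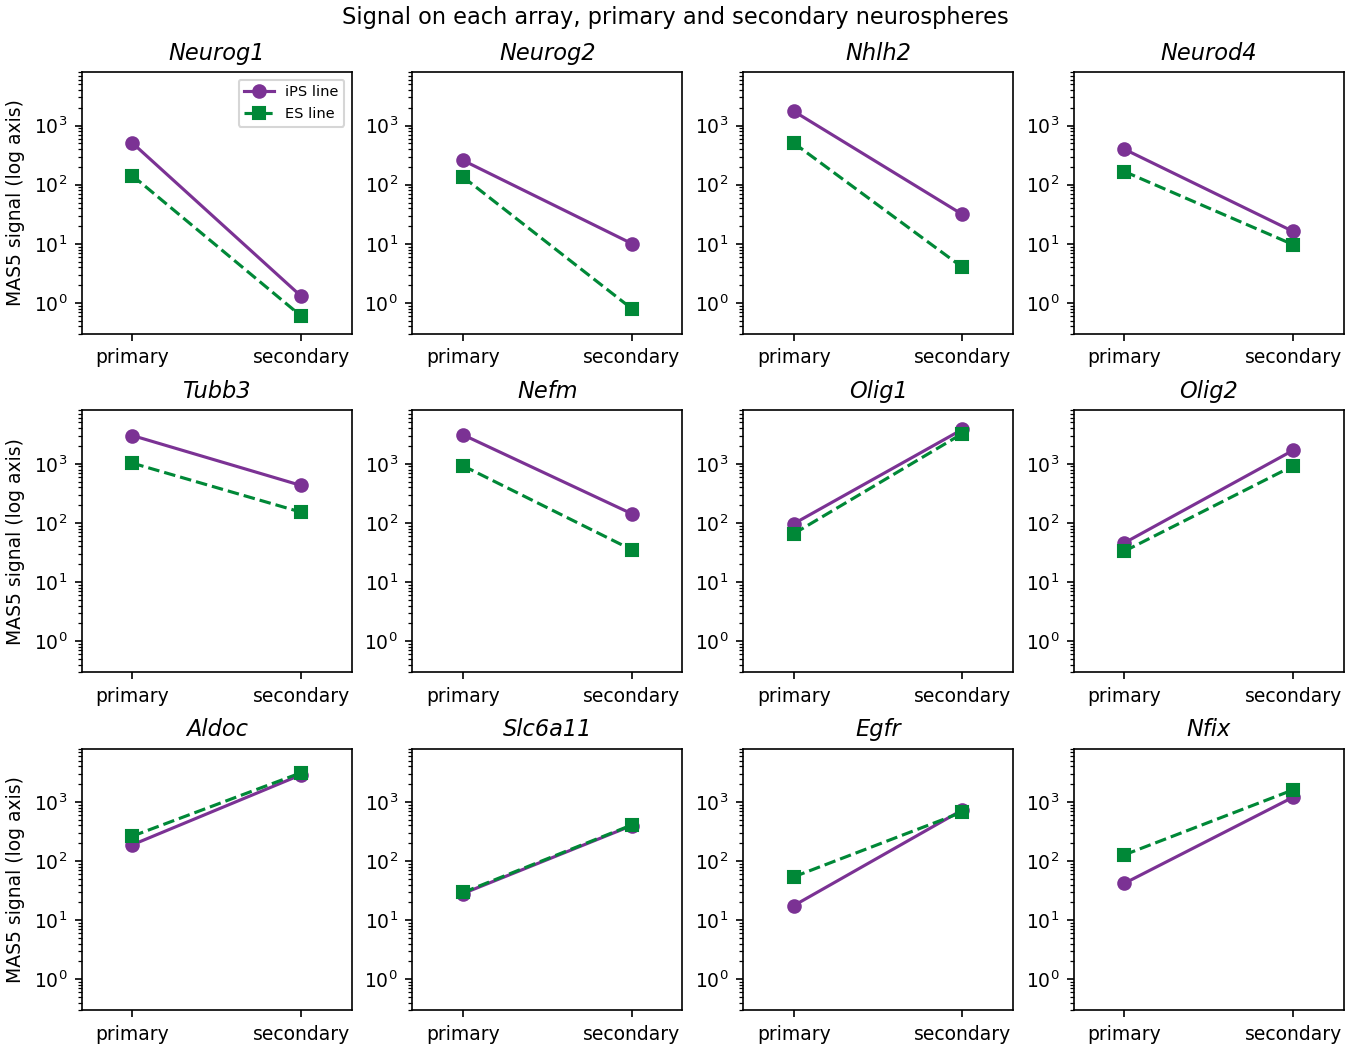
MAS5 signals (y, log axis) of 12 genes on the primary and secondary arrays (x), 1 array a point, with lines joining the arrays of the iPS line (circles) and the ES line (squares). Neurog1, Neurog2, Nhlh2, Neurod4, Tubb3 and Nefm slope down and Olig1, Olig2, Aldoc, Slc6a11, Egfr and Nfix slope up in both lines.

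Oligodendrocyte lineage genes were higher in the secondary spheres of both lines. Of 35 tested, 13 rose, against 3.04% of all genes, and 20 moved alike toward higher, against 6.22% of all genes. None was called lower by limma, and 1 had a negative difference with an unadjusted p under 0.05. The median difference was 2.01 in the iPS line and 1.30 in the ES line. Olig1 read 96.7 and 65.5 in primary and 3825 and 3253 in secondary spheres, the GE spheres reading 3133. It rose by 5.38 ± 0.50 (limma adjusted p = 0.00469), the largest mean gain among the genes that were both called and moving alike. Olig2, its neighbour and the main regulator of the lineage, read 45.9 and 33.2 and then 1689 and 922, with 1032 in GE spheres, and rose by 4.83 ± 0.29 (limma adjusted p = 0.00104). Both genes were low in the primary spheres of both lines and, in the secondary ones, at signals on either side of or just above the GE value.

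Genes of oligodendrocyte precursors rose with them. Pdgfra, the growth factor receptor that defines these precursors, read 48.3 and 50.6 and then 769 and 597, and rose by 3.65 ± 0.71 (limma adjusted p = 0.0353). Cspg4 (NG2), a precursor surface proteoglycan also found on pericytes, rose from 1.8 and 0.4 to 54.0 and 28.5 (limma adjusted p = 0.0114). Sox8, Lhfpl3 and Gpr17 also rose. Gpr17, a receptor of precursors about to differentiate, read 1.6 and 4.0 in primary and 204 and 83.8 in secondary spheres, still well under the 1434 of GE spheres. Lhfpl3, a precursor marker, changed by 3.51 and 3.75 (limma adjusted p = 0.00387). Sox10, which is normally present throughout the lineage, was not called: it changed by 0.38 and 0.90, with secondary signals of 18.2 and 20.5 against 75.1 in GE spheres. The other passing probe set of Sox10, which does not stand for the gene in the model, read 9.4 and 2.0 in primary and 125 and 62.9 in secondary spheres, a mean difference of 3.23.

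Myelin genes were mixed. Mbp, myelin basic protein, read 17.0 and 17.6 and then 964 and 299, against 6578 in GE spheres, and rose by 4.60 ± 0.49 on its brightest probe set (limma adjusted p = 0.00677). Of 8 Mbp probe sets above the filter, 6 gave a higher mean in secondary spheres and the others a lower one, so the gain holds for some probe sets only. With a pseudocount of 1 in place of 5 another probe set became the brightest, and the difference was -1.24. Cnp, Mal, Gpr37 and Bcas1 also rose. Myrf, the factor that switches on myelin genes, changed by 0.40 and -1.52 and Mobp by 0.24 and -1.53, neither of them called.

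Astrocyte genes gave the most calls of the 18 lists. Of 42 tested, 17 rose (3.04% of all genes did) and 27 moved alike toward higher (6.22% of all genes). None was called lower by limma, and 0 had a negative difference with an unadjusted p under 0.05. The median difference was 1.50 in the iPS line and 2.22 in the ES line. Aldoc, the brain aldolase of astrocytes, read 188 and 264 in primary and 2888 and 3121 in secondary spheres, and rose by 3.72 ± 0.19 with the smallest limma adjusted p of all genes (0.000834). The lines lay close together at both stages. Slc6a11, a GABA transporter of astrocytes, did the same with 28.2 and 29.4 and then 398 and 408 (limma adjusted p = 0.00387). Mlc1, an astrocyte end-foot membrane protein, read 4.2 and 27.3 and then 153 and 706 and rose by 4.28 ± 0.58 (limma adjusted p = 0.0139).

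Transporters, matrix proteins and enzymes of astrocytes made up most of the rest. Slc1a3 (GLAST), a glutamate transporter that radial glia also use, rose from 202 and 335 to 1364 and 1666 (limma adjusted p = 0.0139). Acsbg1, a fatty acid enzyme, rose from 29.5 and 32.1 to 308 and 449.9 (limma adjusted p = 0.0122). Both genes were already present in primary spheres, at well-separated levels. Sparcl1, a secreted matrix protein that promotes synapses, read 423 and 402 and then 3089 and 3933 (limma adjusted p = 0.0143). Cd44, a hyaluronan receptor of astrocyte precursors, read 48.8 and 137 and then 849.7 and 1580.4 (limma adjusted p = 0.0334). Aldh1l1, a folate enzyme widely used as an astrocyte marker, rose from 18.5 and 43.6 to 232 and 288 (limma adjusted p = 0.0165). S100b and Cspg5, found in both glial lineages, rose by 2.58 ± 0.32 and 2.30 ± 0.25.

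Some other known astrocyte markers were not called. Gfap, the intermediate filament of mature astrocytes, stayed at the bottom of the scale on all 4 arrays, with 9.9 and 8.5 in primary and 9.8 and 15.0 in secondary spheres, against 357 in GE spheres. Its passing probe sets did not all share a sign. Aqp4, the astrocyte water channel, read 23.5 and 21.1 and then 74.5 and 361 and moved alike by 1.48 and 3.81, but was not called (limma adjusted p = 0.0751). Apoe, a lipid carrier of astrocytes, changed by 1.87 in the iPS line and 0.15 in the ES line (limma adjusted p = 0.539). Gfap was the one of these with no signal above the filter value of 20 on any of the 4 arrays.

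Markers of mesenchyme and fibroblasts moved in the same direction as the glial genes. Of 26 tested, 15 moved alike toward higher (6.22% of all genes) and 1, the collagen gene Col5a2, was called (limma adjusted p = 0.0248, and 0.0563 without the line term). Their summed signal went from 796 to 3101 in the iPS line and from 2477 to 14149 in the ES line. Cnn1, a smooth muscle protein, stayed near the bottom with 0.7 and 1.4 and then 0.2 and 1.2. Pdgfrb, a receptor of mesenchyme and pericytes, read 16.7 and 44.9 and then 119 and 288, and Thy1, which fibroblasts and neurons share, read 10.3 and 22.6 and then 35.7 and 214; neither was called. Some genes on the glial lists, Cd44 and Pdgfra among them, are also made by mesenchymal cells. The same holds for some regulators described below. Adult fibroblasts read 2019 for Nfix, 940 for Stat3 and 524 for Egfr, and less for Nfia (97.9) and Nfib (90.5). The part of mesenchymal cells in the gains of glial genes and these regulators was not tested.

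**Figure D3:**
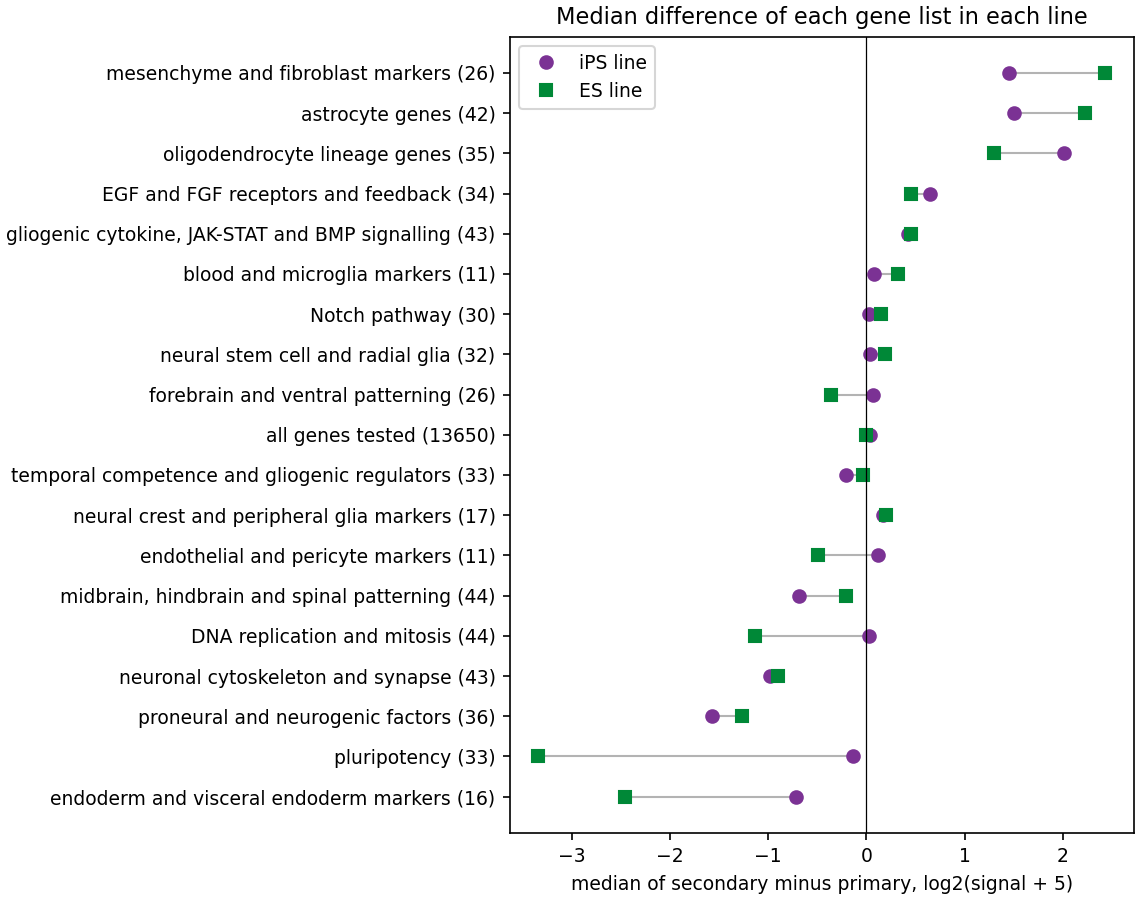
Median secondary minus primary difference in log2(signal + 5) (x) of the members tested in each gene list (y, number tested in parentheses), in the iPS line (circles) and the ES line (squares), with the median of all 13650 genes. Astrocyte, oligodendrocyte lineage and mesenchymal genes lie above 1 in both lines, the neurogenic factors lie below -1 in both, and the pluripotency list is near 0 in the iPS line and at -3.34 in the ES line.

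Regulators that time the change from neurons to glia were called in both directions. Of 33 tested, 4 rose and 4 fell, against 3.04% and 1.72% of all genes, 25 were not called, and the list's medians were -0.21 in the iPS line and -0.04 in the ES line. Of the genes that fell, 3 belong to the early, immature programme. Lin28a, an RNA-binding protein that blocks let-7 microRNA maturation, read 221 and 671 in primary and 2.5 and 12.5 in secondary spheres and fell by 5.09 ± 0.98 (limma adjusted p = 0.0335, and 0.0548 without the line term). Trim71, a let-7 target that keeps neural progenitors immature, fell from 224 and 504 to 15.7 and 27.0 (limma adjusted p = 0.0357). Nr6a1, an orphan nuclear receptor of early embryonic cells, fell from 203 and 487 to 24.5 and 28.2 (limma adjusted p = 0.0156). For each of these, both secondary arrays were below both primary arrays, as they were for 23.8% of all genes. Ezh2, the enzyme of the Polycomb repressive complex that marks histone H3, was the remaining call, with the small change of -0.76 and -1.20 (limma adjusted p = 0.0479, and 0.0572 without the line term).

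Other timing factors were not called. Igf2bp1, an RNA-binding protein tied to Lin28, moved alike by -2.55 and -3.37 but was not called (limma adjusted p = 0.150). Hmga2, a chromatin protein of young stem cells and a let-7 target, changed by 0.09 and -0.96, with signals of 528 and 686 and then 563 and 349.8. Nr2f1 and Nr2f2 (COUP-TFI and COUP-TFII), nuclear receptors needed for the switch from neurons to glia, were bright at both stages. Nr2f1 read 2257 and 1386 in primary and 1163 and 1350.3 in secondary spheres, and Nr2f2 read 405 and 254 and then 220.0 and 456. Neither gene was called, with mean differences of -0.50 ± 0.27 and -0.02 ± 0.40.

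The genes that rose were 3 of the 4 nuclear factor I genes and Sox8. Nfix read 42.0 and 127 in primary and 1204 and 1604 in secondary spheres, against 1556 in GE spheres, and rose by 4.14 ± 0.52 (limma adjusted p = 0.0118). Nfib read 80.9 and 276 and then 1136 and 1259 (limma adjusted p = 0.0344). Nfia, which is needed for the onset of gliogenesis, read 195 and 238 and then 660.5 and 1053 (limma adjusted p = 0.0484, and 0.0512 without the line term). All of these genes encode DNA-binding proteins that switch on glial promoters, and their secondary signals lay above their primary ones in both lines. Nfic changed by 0.69 and 2.99 and was not called. Sox8, a close relative of Sox9 and Sox10, changed by 2.39 and 2.87 (limma adjusted p = 0.00800). Sox9, which starts gliogenesis in the spinal cord, changed by 1.05 and 0.90 (limma adjusted p = 0.0971). Zbtb20, a zinc finger factor of astrocyte formation, changed by 0.82 and 2.59 (limma adjusted p = 0.103). Neither Sox9 nor Zbtb20 passed the threshold.

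**Figure D4:**
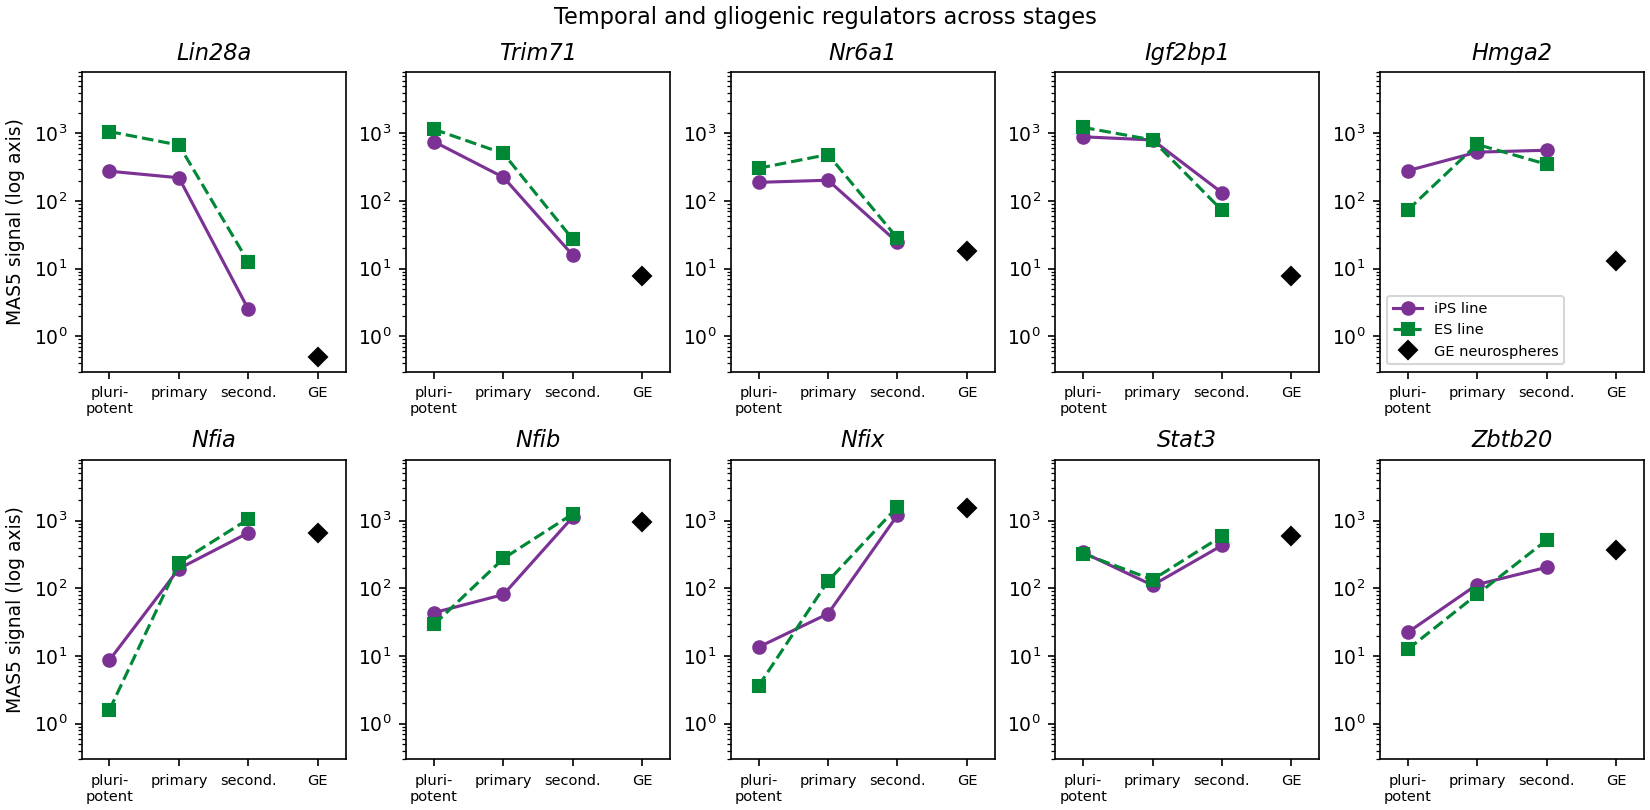
MAS5 signals (y, log axis) of regulators of the change from neurons to glia in the pluripotent cells, primary spheres and secondary spheres (x) of the iPS line (circles) and the ES line (squares) and in the ganglionic eminence spheres (GE, diamond), 1 array a point. Lin28a falls from the primary to the secondary stage in both lines, and Nfia, Nfib and Nfix rise between the same stages.

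Of 43 genes of cytokine, JAK-STAT and BMP signalling, which drives astrocyte formation, 2 rose and 1 fell, shares near the 3.04% and 1.72% of all genes. The medians were 0.42 in the iPS line and 0.46 in the ES line. Stat3, the transcription factor that switches on astrocyte genes, read 111 and 134 in primary and 430.3 and 591 in secondary spheres and rose by 2.01 ± 0.19 (limma adjusted p = 0.00469). Nbl1, a secreted BMP antagonist, rose by 2.77 ± 0.61 (limma adjusted p = 0.0473). Socs2, a feedback inhibitor of cytokine receptors that favours neuron formation, fell by 2.17 ± 0.24 (limma adjusted p = 0.00755). The receptor chains Il6st (gp130) at 0.67 and 1.32 and Lifr at 0.61 and 1.21 were not called, and the oncostatin receptor Osmr moved alike by 1.83 and 2.16 with no call. The ligands Lif, at -1.16 and -0.07, and Il6, at 0.11 and -0.06, were not called either.

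The receptors and feedback genes of EGF and FGF signalling gave 6 higher and 1 lower call among 34, against 3.04% and 1.72% of all genes. Egfr, the EGF receptor that late, gliogenic progenitors acquire, read 17.6 and 54.0 in primary and 734 and 674 in secondary spheres, against 1034 in GE spheres. It rose by 4.28 ± 0.36 (limma adjusted p = 0.00387). The primary level was low in both lines, and the secondary levels of the lines were close to each other and below the GE value. The feedback inhibitors Spry1 and Spry4 rose by 2.58 ± 0.36 and 2.12 ± 0.39 (limma adjusted p = 0.0146 and 0.0302), and Fgfrl1, a decoy FGF receptor, by 2.10 ± 0.31 (limma adjusted p = 0.0178). Etv4, a transcription factor induced by FGF signalling, also rose, and the phosphatase Dusp4 fell by 1.93 ± 0.43 (limma adjusted p = 0.0483, and 0.219 without the line term). The FGF receptors Fgfr1, at 0.64 and 0.76, and Fgfr2, at -0.79 and 0.31, were not called.

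General neural stem cell genes were called in both directions. Of 32 stem cell and radial glial genes, 2 rose, 2 fell and 28 were not called, against 3.04% of all genes higher and 1.72% lower. Of the same 32, 5 moved alike toward higher and 3 toward lower, against 6.22% and 2.33% of all genes, and the medians were 0.03 in the iPS line and 0.19 in the ES line. Those that rose were Slc1a3 and Ptprz1, a receptor phosphatase of radial glia and oligodendrocyte precursors, which went from 422 and 360.3 to 2274 and 2054 (limma adjusted p = 0.0473). Pax6, a regulator of dorsal neurogenic progenitors, fell from 449 and 311 to 56.8 and 43.2 (limma adjusted p = 0.0177). Dach1 fell by 2.37 ± 0.52 (limma adjusted p = 0.0473, and 0.0548 without the line term). The mean differences of Sox1, Sox2, Nes and Fabp7, markers of neural progenitors at large, were 0.08 ± 0.88, 0.19 ± 0.81, -0.33 ± 0.28 and 0.33 ± 0.45. Those of Sox1, Sox2 and Fabp7 turn negative when arrays are set to a common median. Of 30 Notch pathway genes none was called by limma, against 4.76% of all genes in either direction, while 4 were higher and 2 lower at an unadjusted p under 0.05. Notch2 was the one that moved alike, by 1.17 and 1.20. Hes5, a Notch target of neural progenitors, changed by -0.34 and -1.89.

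Several regional identity genes of the dorsal and caudal neural tube were lower in secondary spheres. Among 44 genes of midbrain, hindbrain and spinal cord patterning, 8 fell, against 1.72% of all genes. None was called higher by limma, and 4 were higher at an unadjusted p under 0.05. Of the 44, 8 moved alike toward lower and 3 toward higher, against 2.33% and 6.22% of all genes. Dbx1, which marks interneuron progenitors of the hindbrain and spinal cord, went from 678 and 247 to 17.5 and 8.1, a change of -4.59 ± 0.34 (limma adjusted p = 0.00278). Pax3, a dorsal neural tube factor, changed by -2.20 and -2.55 (limma adjusted p = 0.0281). Irx3 and Irx5 fell by 2.25 ± 0.40 and 1.81 ± 0.30 (limma adjusted p = 0.0285 and 0.0248, and 0.0663 and 0.0922 without the line term). Gbx2, of the anterior hindbrain and also of pluripotent cells, Pax7, Cyp26b1 and Meis2 made up the rest, and without the line term the limma adjusted p was 0.0606 for Cyp26b1 and 0.121 for Meis2. Of 21 Hox genes tested, limma called 0, and 4 had an unadjusted p under 0.05. These went both ways, with Hoxb6 (1.91) and Hoxa7 (0.95) higher and Hoxb1 (-1.94) and Hoxd3 (-1.60) lower. Among 26 forebrain and ventral patterning genes, Pax6 and Sp8 fell. Foxa1, at 1.08 and 1.35, and Nkx2-2, a ventral factor that also acts in oligodendrocytes, at 0.80 and 2.33, were not called.

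Both cellular retinoic acid binding proteins, which carry retinoic acid in the cell, were far lower in the secondary spheres. Crabp2 read 2311 and 1192 in primary and 2.6 and 45.1 in secondary spheres, against 2.8 in GE spheres, and fell by 6.42 ± 0.75 (limma adjusted p = 0.00993). It had the most negative mean of the genes that were both called and moving alike. Crabp1 went from 2379 and 3020.3 to 95.2 and 74.2, a change of -4.91 ± 0.72 (limma adjusted p = 0.0171). For both genes the secondary arrays lay below both primary arrays, as they did for 23.8% of all genes. Cyp26b1, an enzyme that breaks retinoic acid down, fell from 398 and 301 to 129.8 and 36.6 (limma adjusted p = 0.0432, and 0.0606 without the line term).

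Promoter sequences are shown for 3 of the genes with the deepest changes, because each holds a motif of a factor family described here. RefSeq gave at least 1 promoter for 16 of the 24 genes with the largest gains and losses. Each sequence is the 250 bases before the gene's start on mouse build GRCm38.p6, 5′ to 3′ on the strand of the gene, with any match in capitals. Nhlh2 lies at chr3:102009895-102010144 on the plus strand, Neurog1 at chr13:56252181-56252430 on the minus strand, and Olig2 at chr16:91225300-91225549 on the plus strand.
Nhlh2: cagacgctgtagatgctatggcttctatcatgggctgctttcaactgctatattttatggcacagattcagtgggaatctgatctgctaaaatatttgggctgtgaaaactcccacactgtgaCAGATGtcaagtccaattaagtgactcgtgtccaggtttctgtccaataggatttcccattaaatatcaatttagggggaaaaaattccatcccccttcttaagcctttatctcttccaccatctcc
Neurog1: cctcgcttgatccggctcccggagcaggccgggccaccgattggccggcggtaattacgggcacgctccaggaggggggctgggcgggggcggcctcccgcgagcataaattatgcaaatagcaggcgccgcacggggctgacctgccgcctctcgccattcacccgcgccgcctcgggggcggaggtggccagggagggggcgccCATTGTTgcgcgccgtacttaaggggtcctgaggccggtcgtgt
Olig2: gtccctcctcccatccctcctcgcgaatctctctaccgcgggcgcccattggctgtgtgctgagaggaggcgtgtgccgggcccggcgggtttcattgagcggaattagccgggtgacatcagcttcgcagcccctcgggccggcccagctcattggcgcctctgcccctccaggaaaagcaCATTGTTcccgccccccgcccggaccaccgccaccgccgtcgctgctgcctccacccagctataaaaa
Both strands were searched. The capitals in Nhlh2 mark CAGATG, the E-box form read by proneural factors, which 14.4% of 32851 promoters hold. The capitals in Neurog1 and Olig2 mark the SOX motif AACAATG on the opposite strand, which 3.29% hold. Neither TTGGCA, a short nuclear factor I motif (12.3% of promoters), nor TTCNNNGAA, the STAT motif (7.02%), was found in these 3 windows. The shares above are per promoter, whereas a gene is counted below if any of its promoters holds the motif. Of the 16 genes, 15 had 1 promoter and Nfix had several. Among the 16 genes, CAGATG was in 3 of 8 with the largest gains (Cd36, Ephx1, Nfix) and 1 of 8 with the largest losses (Nhlh2). TTGGCA was in 2 of 8 (Ephx1, Phex) and 0 of 8. TTCNNNGAA was in 1 of 8 (Nfix) and 1 of 8 (Lin28a), and AACAATG in 1 of 8 (Olig2) and 1 of 8 (Neurog1). A match is a description of the letters and is not a measured binding site.

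The medians of the pluripotency genes lay farther apart between the lines than those of any other of the 18 lists. In the ES line 30 of 33 were lower by at least 1 unit (10.7% of all genes) and the median difference was -3.34. In the iPS line 5 were lower by that much (4.72% of all genes), with a median of -0.13. The mean level of the list in iPS-derived primary spheres was 4.13 on the log2 scale, against 8.16 in the ES-derived ones. The genes that fell in both were Lin28a, Sall4, Dnmt3b and Gbx2, where 1.72% of all genes fell. Sall4, a zinc finger factor of stem cells and early neural progenitors, read 181 and 1081 in primary and 2.9 and 20.1 in secondary spheres, a change of -4.56 in the iPS line and -5.44 in the ES line (limma adjusted p = 0.00677). Dnmt3b, a DNA methyltransferase of early embryonic cells, went from 145 and 2344 to 33.0 and 102 (limma adjusted p = 0.0479, and 0.226 without the line term). The lines' difference itself was not tested, since each line has 1 array a stage.

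Genes of DNA replication and mitosis also parted by line. Of 44 tested, none was called by limma (2 higher and 14 lower at an unadjusted p under 0.05), while 25 were lower by at least 1 unit in the ES line (10.7% of all genes) and none in the iPS line. The median was -1.13 in the ES line and 0.03 in the iPS line. Mcm7, a subunit of the replicative helicase, read 1968 and 3135 in primary and 1415 and 1140.3 in secondary spheres, and Bub1b, a spindle checkpoint kinase, read 194 and 279 and then 126 and 122. For Mcm7 the ES-derived primary array was the highest of the 4. Cdkn2c, an inhibitor of cell cycle kinases, was the only member to move alike, by 1.45 and 1.71, with no call.

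Lists of markers of other tissues that such cultures can hold were short, and their calls stand against 3.04% of all genes higher and 1.72% lower. Of 16 endoderm genes, Ttr fell, from 42.3 and 107 to 2.1 and 8.1 (limma adjusted p = 0.0189). Of the same 16, 6 moved alike toward lower, against 2.33% of all genes, the epithelial genes Cdh1, Krt8, Krt18 and Cldn6 among them. These genes are not particular to endoderm. The iPS and ES cells read 1792 and 2179 for Cdh1, 94.9 and 47.7 for Krt8, 82.6 and 51.3 for Krt18, and 117.5 and 112.1 for Cldn6. The part of remaining pluripotent cells in the list's drop was not tested. The summed signal of the 16 was 745 in iPS-derived and 2843 in ES-derived primary spheres, and 701 and 1027 in secondary ones. Foxa2, which was not called, alone read 290 and 266 and then 534 and 656, so the secondary sums rest mostly on it. The median difference of the list was -0.72 in the iPS line and -2.45 in the ES line. Of 11 blood and microglial genes none was called by limma (0 higher and 0 lower at an unadjusted p under 0.05), and their summed signals were 61.6 and 100 in primary and 69.8 and 152 in secondary spheres. Of 11 endothelial and pericyte genes Cspg4 was the one call, and the summed signals were 96.7 and 190 in primary and 142 and 277 in secondary spheres. Among 17 genes of neural crest and peripheral glia, Ets1, a transcription factor of crest and vessel cells, rose from 34.5 and 63.7 to 527 and 345 (limma adjusted p = 0.0153). Phox2a, which specifies autonomic and some hindbrain neurons, fell from 95.7 and 49.5 to 2.6 and 7.3 (limma adjusted p = 0.0246).

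**Figure D5:**
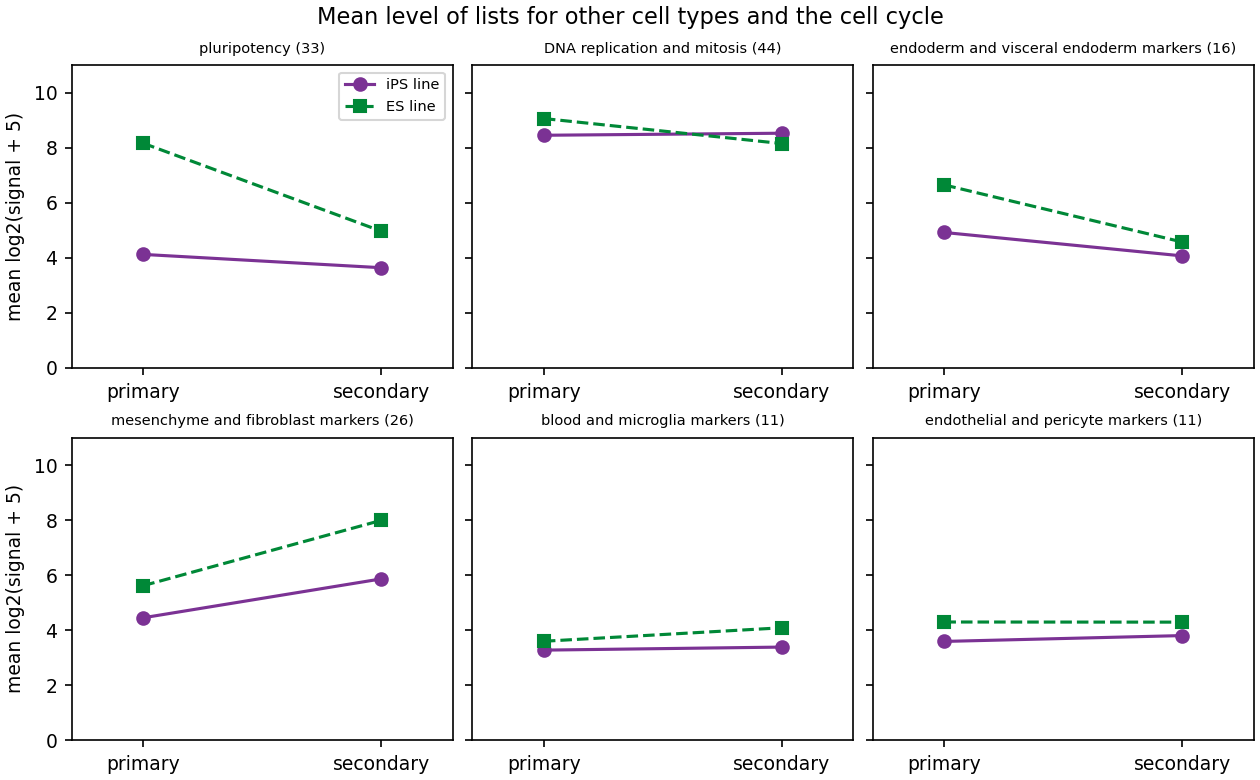
Mean log2(signal + 5) (y) of gene lists for other cell types, pluripotency and the cell cycle (number of genes in parentheses) on the primary and secondary arrays (x) of the iPS line (circles) and the ES line (squares). The pluripotency level of the ES-derived primary array stands above the other 3, and the mesenchymal level is higher in the secondary than in the primary spheres of each line.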

How the data were processed

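The authors deposited 1 table of linear MAS5 signal intensity values from Affymetrix arrays of Trizol-extracted total RNA. The submitters' processing notes name MAS5 and, as software, Affymetrix Expression Console 1.1. Each column's 2%-trimmed mean is 100. Of 45101 probe sets, 34945 name 1 gene symbol in the annotation used, 932 several and 9160 none. Here signals became log2(signal + 5), probe sets below 20 on all 12 arrays were left out, and the probe set with the highest mean over the 12 arrays stood for each gene, which gave 13650 genes. limma 3.58.1 in R 4.3.3 (lmFit, eBayes with a trend, Benjamini-Hochberg over all genes) was fitted to the 12 arrays. The model had 7 groups and a line term (4 residual degrees of freedom), so its spread also comes from pluripotent cells and fibroblast-derived spheres. The paired fibroblast-derived arrays differ in added factors (EGF, LIF, cAMP), so that spread may be wider than between repeat cultures. The line term pairs the arrays because primary and secondary spheres are taken to share a cell line. Over genes, their deviations from the group means correlated at 0.424. The same term spans the pluripotent cells, whose deviations correlated at 0.250 with those of primary and 0.0560 with those of secondary spheres. The code was checked on simulated data.

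The text draws its genes from the 12 genes with the largest and the 12 with the smallest mean difference among called genes moving alike, the 5 with the smallest adjusted p in each of 18 lists, 40 marker genes (37 tested), and 8 genes moving oppositely. A gene named outside that rule was chosen after its values were seen. The comparison and lists were chosen with earlier results of these data known. Lin28b was below the filter, and the other untested markers are not reported here. Alternatives were other normalizations, pseudocounts, filters, probe set rules, sets of arrays, no line term, no trend, and leaving out each array. The number of arrays limits the precision.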

Additional observations from a re-analysis of the deposited data

Results flagged for a closer look

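Among genes that moved by at least 1 unit in opposite directions, 8 had the widest gaps between the lines, and for each the difference between the lines was not tested, since each line has 1 array a stage. The first 4 had a positive difference in the iPS line and a negative one in the ES line. Fgf5, a growth factor of the early epiblast, changed by 1.08 in the iPS line and -4.25 in the ES line, with signals of 0.2 and 129 in primary and 6.0 and 2.0 in secondary spheres. Mcf2, a guanine nucleotide exchange factor, changed by 1.69 and -3.16, with signals of 2.4 and 157 and then 18.8 and 13.1. Slc7a3, an amino acid transporter, changed by 1.31 and -3.08, with signals of 33.3 and 467 and then 89.9 and 50.9. Tfcp2l1, a transcription factor of naive pluripotent cells, changed by 1.26 and -3.06, with signals of 3.1 and 102 and then 14.4 and 7.9. The iPS-derived signals of Fgf5, Mcf2 and Tfcp2l1 were all under 20, where signals have no dependable order. Fgf5 and Tfcp2l1 are on the pluripotency list, whose summed signal was highest on the ES-derived primary array.

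The other 4 went the opposite way. Clec3b (tetranectin) changed by -1.10 in the iPS line and 4.15 in the ES line, with signals of 10.4 and 38.9 in primary and 2.2 and 772 in secondary spheres. Samd5 changed by -1.58 and 2.34, with signals of 71.5 and 39.0 and then 20.6 and 218. Mfap4, an extracellular matrix protein, changed by -1.67 and 1.71, with signals of 13.5 and 24.5 and then 0.8 and 91.4. The iPS-derived signals of Clec3b and Mfap4 were under 20 at both stages. Kcna5, a potassium channel, changed by -1.88 and 1.24, with signals of 72.3 and 21.4 and then 16.0 and 57.2.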

How the results depend on the processing

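The main model gave 415 genes higher and 235 lower in secondary spheres, with 849 in the group genes moving alike, higher and 318 in the group genes moving alike, lower. The replicate block by line is part of that model. With no replicate block the counts were 264 and 106, all of them among the 650 main calls. With the block they were 73 and 36 on 6 arrays and 130 lower on 4 arrays. A common median gave 1088 lower, with 531 and 680 moving alike. A pseudocount of 1 gave 257 and 139, and one of 20 gave 562 and 191 moving alike. Without a filter 151 were lower, and without a trend 104. Each probe set on its own gave 835 and 423, with 1508 and 523 moving alike, out of 24568 tested. Leaving out 1 array gave 4 to 108 higher and 1 to 57 lower, with an arm of 1 array assumed to vary like the other groups. The cause of these shifts was not tested.

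Of the 67 named genes that were called, 12 were no longer called without the block, 14 without a trend, 15 with a pseudocount of 1, 26 on 6 arrays, 7 without a filter, and 42 to 64 with 1 array left out. Of the called genes named outside the naming rule, Cyp26b1, Dusp4, Ezh2, Meis2, Onecut1 and Sox11 were also not called without the block. The direction turned for 6 genes under the other settings: Nr2f2 (0.0053 with quantile normalization), Sox1, Sox2 and Fabp7 (-0.27, -0.17 and -0.032 at a common median), Laptm5 (0.20 with the mean of probe sets), and Mbp (-1.24 with a pseudocount of 1, where another probe set represents it). With 1 array left out, the range crossed 0 for Sox1 (-0.97 to 1.14), Sox2 (-0.042 to 0.42), Fabp7 (-0.13 to 0.79), Apoe (-0.34 to 2.36), Nr2f2 (-0.66 to 0.62), Laptm5 (-1.54 to 0.19), Pou5f1 (-5.02 to 0.14), Nanog (-4.78 to 1.32), Gfap (-0.021 to 0.58), Hmga2 (-1.26 to 0.39), Emcn (-0.016 to 3.31) and Tyrobp (-0.072 to 1.58). None of these was called in the main model. A single array per line and stage limits every value, and signals under 20 have no dependable order.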

Other observations

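Several of the largest shared gains were in genes outside the neural lists. Cd36, a fatty acid receptor, read 5.5 and 36.9 in primary and 171 and 1308 in secondary spheres and rose by 4.52 ± 0.68 (limma adjusted p = 0.0184). Ephx1, a microsomal enzyme that opens epoxides, read 13.6 and 53.2 and then 583 and 823 (limma adjusted p = 0.0139). Ramp1, a partner protein of the calcitonin-like receptor, read 5.4 and 0.4 and then 239.8 and 89.1 (limma adjusted p = 0.0150). That receptor, Calcrl, also rose, from 16.8 and 43.5 to 670.3 and 384 (limma adjusted p = 0.0118), and was named after its values were seen. Phex, an endopeptidase known from bone, read 5.1 and 5.0 and then 142 and 240.4, and Scrg1, a gene of glia and mesenchymal stem cells, read 11.1 and 4.1 and then 172 and 421. For each of these 6 genes both secondary arrays lay above both primary arrays, as they did for 26.2% of all genes.

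Neurotransmitter receptors and secreted proteins were also among the gains, and Grm5, Gabrg1, Timp4 and Igfbp3 were chosen after their values were seen. Grm5, a metabotropic glutamate receptor of young astrocytes and neurons, read 17.3 and 11.3 in primary and 344 and 174 in secondary spheres (limma adjusted p = 0.00387). Gabrg1, a GABA receptor subunit, read 6.1 and 17.9 and then 225 and 228 (limma adjusted p = 0.0207). The GE spheres read 396 for Grm5 and 178 for Gabrg1. Timp4, an inhibitor of matrix proteases, rose from 80.8 and 125 to 1310.4 and 1856, and Igfbp3, which binds insulin-like growth factors, from 56.6 and 149 to 1311 and 1519 (limma adjusted p = 0.00254 and 0.00364). Among the losses, Uncx, a homeobox gene of midbrain and spinal neurons, fell from 148 and 83.5 to 4.0 and 0.4 (limma adjusted p = 0.00387).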
